A study of Mus musculus with 36 samples.

Results

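Genes of the endoplasmic reticulum, the compartment in which secreted and membrane proteins are folded, were examined in mouse spleen. The group comprised 36 named genes: chaperones, disulphide enzymes, prolyl isomerases, lectin chaperones, parts of the translocation channel and signal peptidase, factors of protein degradation, and stress factors. Each gene was followed by the probe set that named that gene alone and had the highest mean. All 36 had such a probe set, out of 18193 genes with one, and all 36 passed the filter on low values, which left 12427 genes in all. Spleen RNA from 36 F2 mice aged 4 months, 18 arthritic and 18 non-arthritic, had been hybridised to 1 Affymetrix array per mouse. By the title of the series, the arthritic mice lacked the interleukin 1 receptor antagonist, an inhibitor of interleukin 1 signalling, and its text states a search for subpopulations among them. No genotype of the individual mouse, sex, parent strain or arthritis score is stated in the labels, so the alleles shared by the groups are not known here.

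Proteins that enter the endoplasmic reticulum are held by the chaperone Hspa5 (BiP), given disulphide bonds by the protein disulphide isomerases, and, if they do not fold, sent back to the cytosol for degradation. When unfolded proteins build up, the sensors Atf6, Ern1 (IRE1) and the kinase PERK start the unfolded protein response: Atf6 and the spliced form of Xbp1 induce chaperones and degradation factors, and the PERK branch acts through Atf4 and Ddit3 (CHOP). In the spleen, plasma cells and other antibody-secreting cells hold the largest secretory apparatus and use Xbp1 to build it. Whole spleens were measured, so a change in the number of such cells and a change in RNA per cell cannot be told apart.

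Many genes of this response carry the ER stress element in their promoter, a CCAAT box and a CCACG core separated by a spacer, which is bound by NF-Y and by Atf6 or Xbp1. RefSeq promoter windows (assembly GRCm38.p6), from 250 bases before to 50 bases after the start of transcription, were on hand for 30 of the 36 genes. The exact letters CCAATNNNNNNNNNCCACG, read on both strands, occurred in 9 of these 30 genes (30%), against 37 of 27025 genes with a window (0.137%). A related element, ATTGG and CCACG with 1 free base between them, occurred in 2 of the 30, Herpud1 and Dnajb11, against 12 of 27025 genes (0.0444%). In Hspa5 the element began 65 bases before the start and in Creld2 126 bases before it, Hsp90b1 had 1 copy at 212 and 1 at 107 bases before it, and the Dnajb11 element began 7 bases downstream of it. The CCACG core alone, which lies inside both elements, was found in 27 of the 30 genes (90%) against 35.5% of all genes. The letters TGACGTGG, a core recognised by Xbp1, were found in 0 of the 30 windows, against 0.714% of all genes. The matches are shown because these promoters hold them more often than others do, each 5′ to 3′ on the strand that carries it, with the fixed letters in capitals and the spacer in lower case.
Hspa5: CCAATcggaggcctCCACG
Hsp90b1: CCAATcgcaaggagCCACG
Hsp90b1, second copy: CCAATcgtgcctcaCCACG
Calr: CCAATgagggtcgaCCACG
Canx: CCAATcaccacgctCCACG
Pdia6: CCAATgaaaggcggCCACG
Creld2: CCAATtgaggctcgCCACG
Dnajc3: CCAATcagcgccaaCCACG
Derl3: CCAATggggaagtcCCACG
Syvn1: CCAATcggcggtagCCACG
Herpud1: ATTGGgCCACG
Dnajb11: ATTGGcCCACG

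The 250 bases before the start are shown for 4 of the genes, read 5′ to 3′ on the strand of the gene, with complete ER stress elements in capitals. Of the 30 genes with a window, 19 held neither element. Counted by the exact letters, Hspa5 (chr2:34771840-34772089, plus strand) and Creld2 (chr15:88819396-88819645, plus strand) have 1 element each. Hsp90b1 (chr10:86705445-86705694, minus strand) has 2, and Sdf2l1 (chr16:17132384-17132633, minus strand), the gene with the smallest p-value, has none with these exact letters in the window. Looser matches were not counted in any gene.
Hspa5: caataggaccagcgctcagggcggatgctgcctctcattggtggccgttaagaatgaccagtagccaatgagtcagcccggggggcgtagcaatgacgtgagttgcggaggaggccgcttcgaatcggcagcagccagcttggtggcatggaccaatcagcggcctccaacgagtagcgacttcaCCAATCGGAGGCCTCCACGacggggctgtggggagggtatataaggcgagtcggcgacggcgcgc
Hsp90b1: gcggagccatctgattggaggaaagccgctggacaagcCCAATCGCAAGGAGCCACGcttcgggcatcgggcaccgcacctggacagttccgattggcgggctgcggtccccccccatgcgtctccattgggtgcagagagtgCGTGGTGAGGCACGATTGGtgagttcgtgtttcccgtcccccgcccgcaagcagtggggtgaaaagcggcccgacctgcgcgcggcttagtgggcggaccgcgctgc
Creld2: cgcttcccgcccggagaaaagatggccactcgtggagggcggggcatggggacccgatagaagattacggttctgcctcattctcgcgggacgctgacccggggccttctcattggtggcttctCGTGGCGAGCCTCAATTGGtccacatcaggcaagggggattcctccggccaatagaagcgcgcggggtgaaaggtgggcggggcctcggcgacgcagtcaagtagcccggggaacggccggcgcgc
Sdf2l1: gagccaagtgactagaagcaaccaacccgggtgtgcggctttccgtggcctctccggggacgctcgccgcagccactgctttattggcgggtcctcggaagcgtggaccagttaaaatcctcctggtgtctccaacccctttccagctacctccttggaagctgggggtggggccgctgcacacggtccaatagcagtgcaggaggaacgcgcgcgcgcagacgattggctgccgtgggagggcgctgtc

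The values are microarray intensities on a linear scale, taken here as log2(intensity + 16); the offset of 16 shrinks the differences of dim probe sets. The median intensity of an array lay between 110.6 and 183.2; precision is limited by how many arrays there are. The arrays fell into 3 clusters by their hybridisation spike-in controls, which are RNAs added by the manufacturer's protocol and not from the mice: cluster A held 9 arthritic and 4 non-arthritic arrays, cluster B 6 and 10, and cluster C 3 and 4. Because the clusters hold the groups in unequal shares, values within them stand beside the results. The clusters also followed replicate number in part. The arthritic arrays were replicates 1 to 9 in A, 11 to 13 in C, and the rest in B. Non-arthritic replicates 9 to 12 lay in C, 13 to 18 in B, and 1 to 8 in A or B. Pancreas acinar genes were high on 3 arrays, all in cluster A (arthritic replicate 8 and non-arthritic replicates 5 and 6). The labelled tissue could be checked by its cells: the B cell markers Cd79a, Cd79b, Ms4a1 and Cd22 had mean log2 levels between 12.90 and 13.17 in both groups. The log2 ratio of the 3′ to the 5′ control probe sets of Gapdh, a measure of RNA integrity and labelling, had a median of -0.26 in arthritic and -0.09 in non-arthritic mice.

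The comparison of arthritic with non-arthritic mice asked whether these genes differed with disease. A group of 9 genes had higher means in arthritic spleens at an unadjusted p under 0.05: the chaperones Sdf2l1 and Dnajb11, the disulphide enzymes Pdia3, Pdia4, Pdia6 and Creld2, the prolyl isomerase Fkbp11, and the degradation factors Herpud1 and Derl3. The best known chaperones of the compartment, Hspa5, Hsp90b1, Calr and Canx, had differences between -0.09 and -0.01. None of the 36 genes passed the limma test after Benjamini-Hochberg adjustment across the 27022 probe sets tested, of which 13 (0.0481%) did. At an unadjusted p under 0.05, 9 of the 36 were higher and 0 lower in arthritic mice, beside 8.86% of all tested probe sets higher and 6.87% lower. Counted by gene, 988 of 12427 were higher and 799 lower. Several of the 9 genes varied together across mice, as given below, so they are not independent of each other. A positive difference of any size was seen in 23 of the 36, beside 50.9% of probe sets. The median difference was 0.05 log2 over the 36 genes and -0.002 over all 12427 genes.

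**Figure D1:**
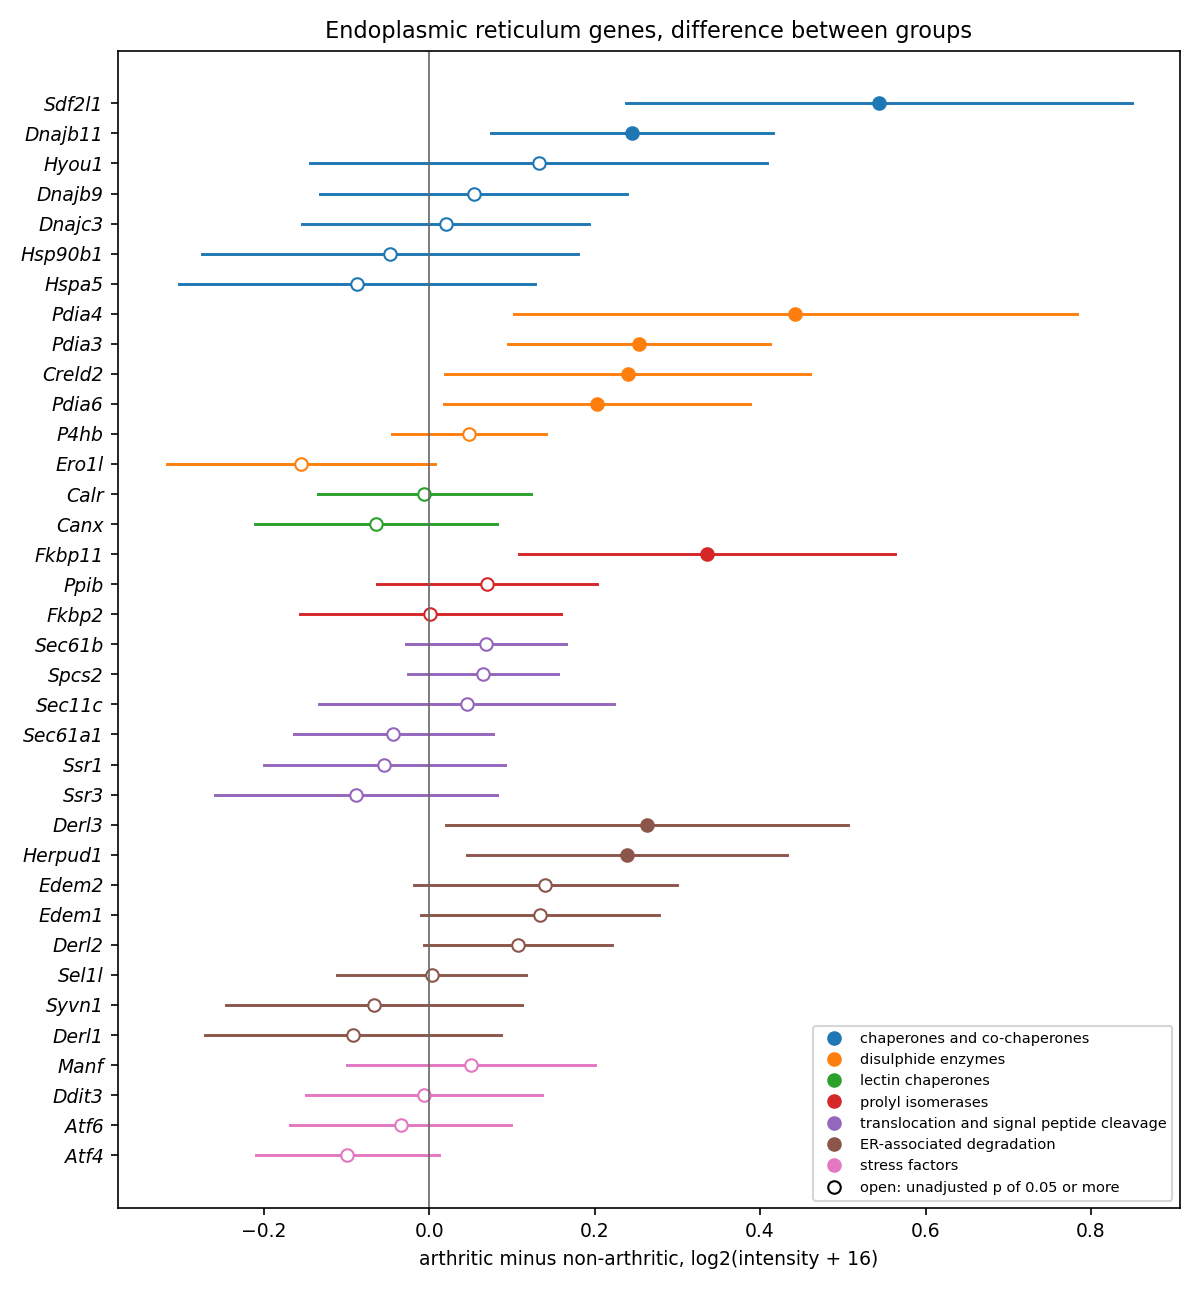
Arthritic minus non-arthritic difference in log2(intensity + 16) for each of the 36 genes, with bars for the 95% confidence interval of the limma fit (18 mice per group), coloured by role. Filled points are the 9 genes with an unadjusted p under 0.05; all lie to the right of 0, led by Sdf2l1 at 0.54 and Pdia4 at 0.44.

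The disulphide enzymes, which form and reshuffle the bonds between cysteines of folding proteins, had the largest median difference of any role, 0.22, and 4 of 6 had an unadjusted p under 0.05. Pdia3, which acts on glycoproteins held by Calr and Canx, ranged in arthritic mice from 12.32 to 13.08 with a median of 12.70, and in non-arthritic mice from 11.98 to 12.83 with a median of 12.48. The groups overlapped widely, and 13 of 18 arthritic mice exceeded the median of the other group. The difference was 0.25 (SE 0.08), a 1.19-fold higher level (limma adjusted p = 0.124). Pdia4, a larger isomerase with an extra thioredoxin domain, ran from 9.16 to 11.38 (median 10.77) in arthritic mice and from 8.90 to 11.24 (median 10.42) in non-arthritic mice. Its ranges nearly coincided, and the groups differed in where most mice lay, since 15 of 18 arthritic mice exceeded the median of the other group. Its difference was 0.44 (SE 0.17), or 1.36-fold (limma adjusted p = 0.194).

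Pdia6, an isomerase that binds Hspa5, spanned 11.47 to 12.40 (median 11.99) in arthritic and 11.36 to 12.33 (median 11.77) in non-arthritic mice, a difference of 0.20 (SE 0.09, limma adjusted p = 0.273). Creld2, a small disulphide isomerase of the stress response, spanned 10.001 to 11.70 (median 10.92) and 10.16 to 11.57 (median 10.64), a difference of 0.24 (SE 0.11, limma adjusted p = 0.275). In both genes the lowest and highest mice of the groups lay close together, and 12 and 15 of 18 arthritic mice respectively exceeded the non-arthritic median. P4hb, the classical protein disulphide isomerase, differed by 0.05 (SE 0.05). Ero1l (Ero1a), the oxidase that recharges these enzymes, went the other way without passing the test, at -0.16 (SE 0.08, limma adjusted p = 0.338), and 3 of 18 arthritic mice exceeded the median of the other group. With the spike-in cluster as a term in the fit, the Ero1l difference was -0.09 (SE 0.07), and within cluster C it was 0.15. Its other tested probe sets gave -0.04 and 0.10.

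Among the 7 chaperones and co-chaperones, 2 had an unadjusted p under 0.05. Sdf2l1, a partner of the co-chaperone Dnajb11 in a complex that keeps unfolded proteins soluble, showed the largest difference of all 36 genes. Its levels ran from 9.62 to 11.38 with a median of 10.63 in arthritic mice, and from 8.98 to 10.78 with a median of 10.08 in non-arthritic mice. Most of the arthritic mice, 16 of 18, exceeded the median of the other group, though the ranges overlapped. The difference was 0.54 (SE 0.15), a 1.46-fold higher level, with a limma adjusted p of 0.0959. The call turned on single arrays: without non-arthritic replicate 2 the limma adjusted p was 0.0404, and without non-arthritic replicate 5, which is high in pancreas genes, it was 0.0464. The calls over all probe sets rose as well, from 13 to 389 (1.44%) without replicate 2 and to 250 (0.925%) without replicate 5.

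Dnajb11 (ERdj3), a co-chaperone that hands substrates to Hspa5, spanned 9.84 to 10.79 (median 10.46) in arthritic and 9.28 to 10.51 (median 10.22) in non-arthritic mice. It differed by 0.25 (SE 0.08, limma adjusted p = 0.156), and 15 of 18 arthritic mice exceeded the median of the other group. Hspa5 itself spanned 13.04 to 14.26 (median 13.67) in arthritic mice and 13.30 to 14.28 (median 13.67) in non-arthritic mice. The medians were equal to 2 decimals and 9 of 18 arthritic mice exceeded that of the other group, with a difference of -0.09 (SE 0.11, limma adjusted p = 0.715) and a 95% confidence interval of -0.30 to 0.13. Hsp90b1 (GRP94), the endoplasmic reticulum form of Hsp90, differed by -0.05 (SE 0.11). The remaining co-chaperones differed by 0.13 (SE 0.14) for Hyou1, which helps Hspa5 exchange its nucleotide, 0.05 (SE 0.09) for Dnajb9 (ERdj4), and 0.02 (SE 0.09) for Dnajc3 (p58IPK).

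**Figure D2:**
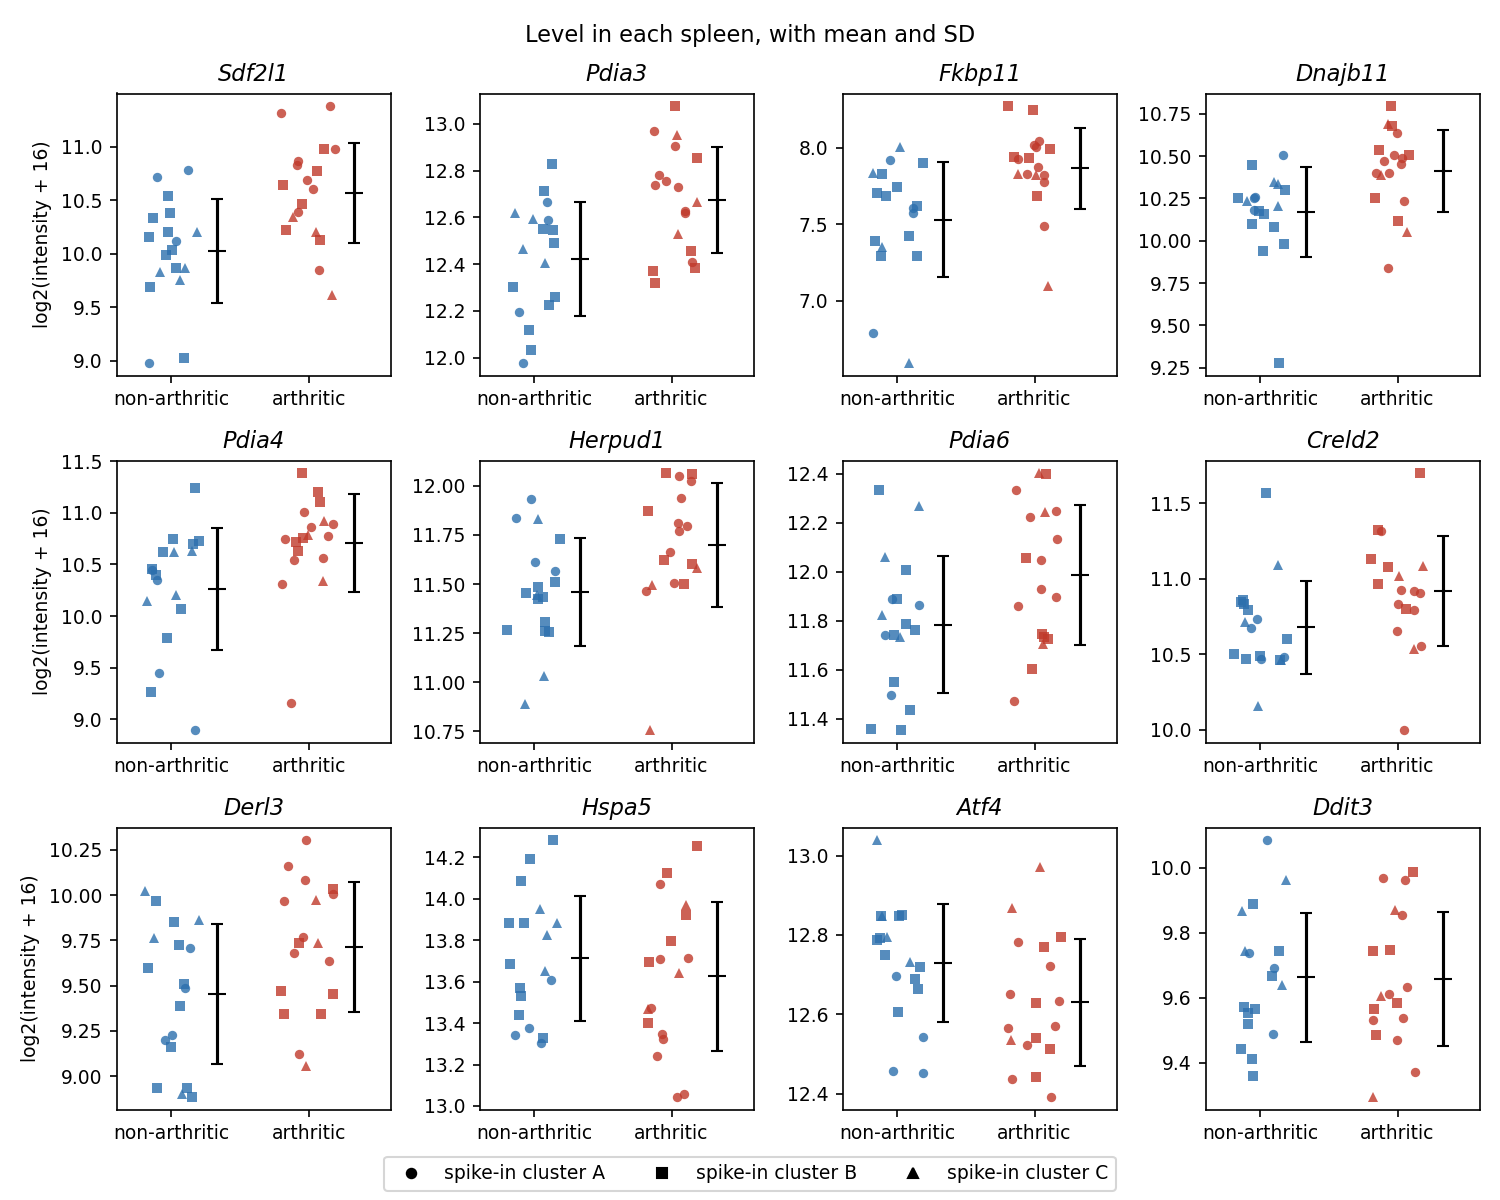
Level of 12 genes in each spleen, as log2(intensity + 16), by group, with the spike-in cluster as the marker shape and the mean with SD beside each group (18 mice each). The vertical scale differs between panels, and the groups overlap in every panel; the arthritic medians of Sdf2l1 and Pdia4 (10.63 and 10.77) lie above the non-arthritic ones (10.08 and 10.42), while those of Hspa5 are both at 13.67.

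The degradation genes had 2 of 8 members at an unadjusted p under 0.05 and 6 of 8 with a positive difference. Herpud1, an organiser of the channel that exports unfolded proteins, ran from 10.76 to 12.06 (median 11.72) in arthritic and from 10.89 to 11.93 (median 11.45) in non-arthritic mice. It differed by 0.24 (SE 0.10, limma adjusted p = 0.218), and 17 of 18 arthritic mice exceeded the non-arthritic median, the highest count among the 36 genes, while the single lowest mouse of all was arthritic. Derl3, a Derlin of that channel, differed by 0.26 (SE 0.12, limma adjusted p = 0.278). Its relatives Derl2 and Derl1 differed by 0.11 (SE 0.06) and -0.09 (SE 0.09). Edem1 and Edem2, which mark glycoproteins for disposal by trimming mannose, differed by 0.13 (SE 0.07) and 0.14 (SE 0.08). The ubiquitin ligase Syvn1 (HRD1) and its partner Sel1l differed by -0.07 (SE 0.09) and 0.003 (SE 0.06).

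Of the 3 prolyl isomerases, which turn proline bonds during folding, Fkbp11 had an unadjusted p under 0.05. It spanned 7.09 to 8.27 (median 7.90) in arthritic and 6.59 to 8.01 (median 7.61) in non-arthritic mice, and 16 of 18 arthritic mice exceeded the median of the other group. The difference was 0.34 (SE 0.11, 1.26-fold, limma adjusted p = 0.150), and its probe set is of a type (_s_at) that can match several transcripts, as are those of Canx, Derl1, Hyou1 and Syvn1. Ppib (cyclophilin B) differed by 0.07 (SE 0.07) and Fkbp2 by 0.002 (SE 0.08).

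The remaining roles had no member at an unadjusted p under 0.05. Calr and Canx, the lectin chaperones that hold glycoproteins, differed by -0.006 (SE 0.06) and -0.06 (SE 0.07). The 6 genes of translocation and signal peptide cleavage lay between -0.09 and 0.07: Sec61a1 and Sec61b, subunits of the channel, at -0.04 and 0.07, Ssr1 and Ssr3, subunits of the translocon-associated complex, at -0.05 and -0.09, and Sec11c and Spcs2, subunits of the signal peptidase, at 0.05 and 0.06. Atf4, the transcription factor whose translation rises when PERK is active, spanned 12.39 to 12.97 (median 12.60) in arthritic and 12.45 to 13.04 (median 12.74) in non-arthritic mice, a difference of -0.10 (SE 0.05, limma adjusted p = 0.370). For Atf4, 5 of 18 arthritic mice exceeded the median of the other group.

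The stress sensor Atf6 spanned 9.41 to 10.09 (median 9.78) in arthritic and 9.53 to 10.05 (median 9.78) in non-arthritic mice, a difference of -0.03 (SE 0.07, limma adjusted p = 0.831). Ddit3, a factor linked to cell death under prolonged stress, spanned 9.29 to 9.99 (median 9.61) and 9.36 to 10.08 (median 9.65), a difference of -0.006 (SE 0.07, limma adjusted p = 0.978). For both genes the groups covered nearly the same range. Manf, a stress-induced secreted factor that binds Hspa5, differed by 0.05 (SE 0.07). These are transcript levels, which do not record the cleavage of Atf6, the splicing of Xbp1 or the translation of Atf4.

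Within the spike-in clusters the disulphide enzymes kept their sign most often, with 5 of 6 positive in all 3 clusters. The 4 non-arthritic arrays of cluster A include replicates 5 and 6, which were high in pancreas genes. Pdia4 was higher in arthritic mice by 0.76 in cluster A, 0.57 in B and 0.28 in C, and Creld2 by 0.18, 0.42 and 0.27. Sdf2l1 was higher by 0.62, 0.51 and 0.14. Herpud1 was not even across clusters, at 0.04, 0.37 and -0.02, nor was Derl3, at 0.45, 0.17 and -0.05. Over all 36 genes, 27, 30 and 22 were positive in clusters A, B and C, and 14 were positive in all 3, beside 11% of the 12427 genes.

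With the spike-in cluster as a block in the limma fit, 0 of the 36 genes passed after adjustment. At an unadjusted p under 0.05, 11 were higher and 0 lower, beside 6.12% of probe sets higher and 5.8% lower, and 29 were positive, beside 48% of probe sets. Sdf2l1 then differed by 0.47 (SE 0.15), Pdia4 by 0.57 (SE 0.16) and Hspa5 by 0.02 (SE 0.10). Derl2, Dnajc3 and the signal peptidase subunit Sec11c joined the genes at an unadjusted p under 0.05, at 0.13, 0.13 and 0.17, and Derl3 left them. A test of whether the group difference itself varied between clusters called 0 of the 36 after adjustment. It gave 2 at an unadjusted p under 0.05, Syvn1 and Ssr1, beside 16.7% of probe sets.

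**Figure D3:**
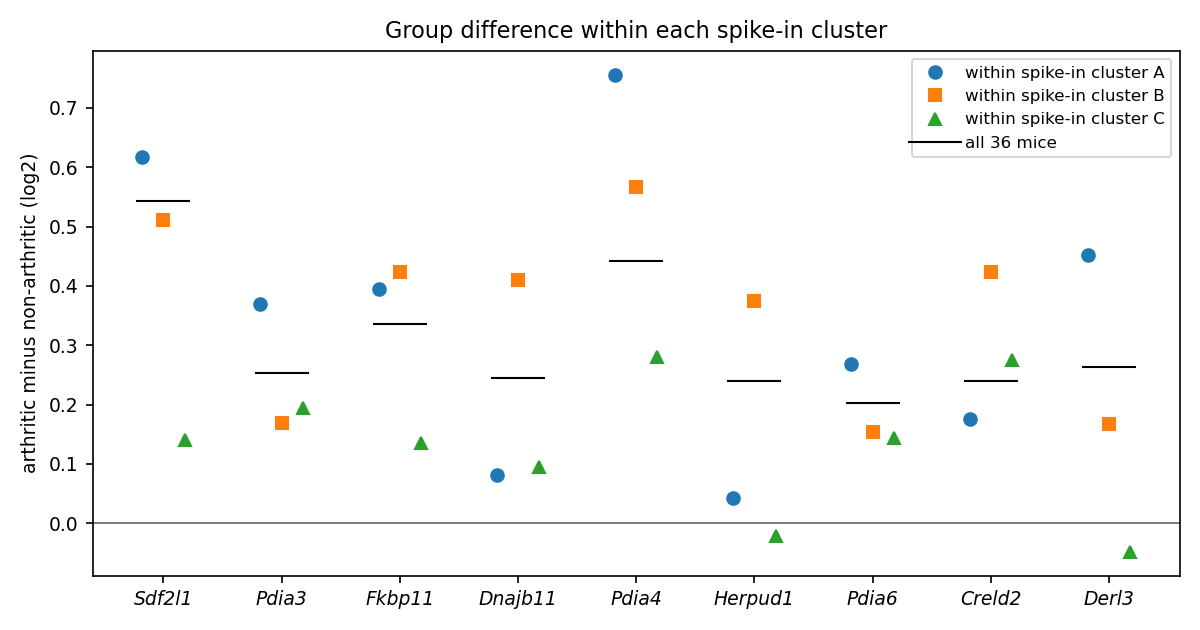
Arthritic minus non-arthritic difference (log2) within spike-in clusters A, B and C for the 9 genes with an unadjusted p under 0.05, with a black bar for the difference over all 36 mice. Herpud1 and Derl3 fall slightly below 0 in cluster C, which holds 7 mice, and the other 7 genes are above 0 in each cluster.

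The spike-in clusters themselves differed in 15 of the 36 genes (limma with group as a term, adjusted p under 0.05), a share below the 48.1% of all probe sets. Hspa5 was higher by 0.39 in cluster B and 0.34 in cluster C than in A, Derl1 by 0.53 and 0.49, and Canx by 0.42 and 0.28. Hyou1 was lower in B and C than in A, by values of -0.63 and -0.58. The Gapdh ratio also followed the clusters, with means of -0.42 ± 0.11 (SD, n = 13) in A and -0.14 ± 0.10 (SD, n = 7) in C, and a mean near 0 in B. Across the 36 mice 9 of the 36 genes had an absolute correlation of at least 0.5 with that ratio, beside 22.0% of all genes. Canx had r = 0.81, Derl1 0.76, Sec61a1 0.70, Syvn1 0.69 and Hspa5 0.67. Of the 9 genes higher at an unadjusted p under 0.05, none reached an absolute r of 0.5; their values lay between -0.29 (Herpud1) and 0.23 (Creld2). With the ratio as a covariate, 9 genes were higher at an unadjusted p under 0.05, beside 5.3% of probe sets. Of these, 8 were among the 9 named above, with Sec11c in place of Derl3. A total of 31 differences were positive, beside 48.3% of probe sets, and that of Hspa5 was 0.05.

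The choice of probe set mattered for the genes near 0. The array carries 44 further tested probe sets for 24 of the genes. Of these, 34 gave a positive difference, beside 50.9% of all tested probe sets, and 0 passed after adjustment. At an unadjusted p under 0.05, 10 were higher and 1 lower, beside 8.86% and 6.87% of all tested probe sets. Some genes, such as Sel1l, Sec61a1 and Dnajc3, hold several of the 44, which are thus not separate genes. The further probe sets followed the chosen one of the same gene only loosely across mice: the median correlation was 0.19, from -0.63 for a probe set of Derl1 to 0.90 for Calr. Hspa5 is the clearest case. Its 2 other probe sets had correlations of 0.14 and 0.11 with the chosen one, and differences of 0.15 (SE 0.09) and -0.20 (SE 0.08) beside its -0.09.

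A second probe set of Derl1 was higher in arthritic mice by 0.25 (SE 0.07, limma adjusted p = 0.0896), against -0.09 for the chosen one. The 4 other probe sets of Sel1l gave 0.11 to 0.47 against 0.003, and 3 of them had an unadjusted p under 0.05. Other probe sets of Dnajc3, Hsp90b1, Canx and Sec61a1 reached 0.29, 0.29, 0.25 and 0.30. With all tested probe sets of a gene averaged, 11 genes were higher at an unadjusted p under 0.05, beside 8.34% of 16849 genes and unnamed probe sets, and 1, Atf4, was lower. A positive difference was seen in 29, and 0 passed after adjustment. Herpud1 and Pdia6 no longer had an unadjusted p under 0.05. Pdia3, Pdia6 and Herpud1 had a positive difference on each of their tested probe sets. The other probe sets of Pdia3 and Pdia6 were dim, at mean log2 levels of 6.82 and 7.39. They had correlations of -0.10 and 0.20 with the chosen ones, and that of Herpud1 had 0.75. Sdf2l1, Fkbp11, Pdia4, Dnajb11, Creld2 and Derl3 rested on a single tested probe set.

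**Figure D4:**
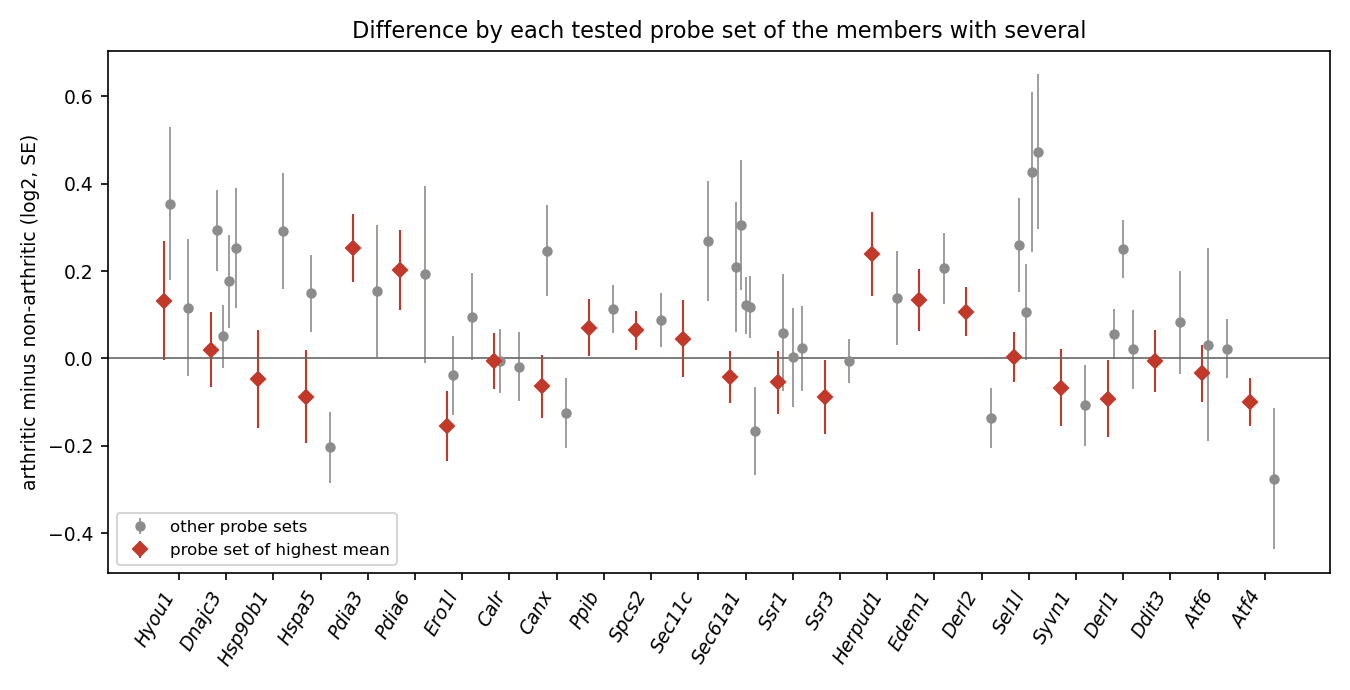
Arthritic minus non-arthritic difference (log2, bars for SE) of each tested probe set for the 24 genes with more than 1; red diamonds mark the probe set of highest mean and grey circles the others. The grey circles spread around the diamonds and 34 of 44 lie above 0, beside 50.9% of all tested probe sets. Those of Sel1l lie between 0.11 and 0.47 although its diamond is at 0.003.

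Further genes of the same pathway, 53 beyond the 36, included 10 higher and 0 lower at an unadjusted p under 0.05. The shares of all tested probe sets were 8.86% higher and 6.87% lower. A positive difference was seen in 31 of the 53, beside 50.9% of probe sets. The smallest p-values belonged to Atf6b, a relative of Atf6, at 0.18 (SE 0.06, limma adjusted p = 0.127), Sar1b, a GTPase of the vesicles that leave the compartment, at 0.19 (SE 0.06, adjusted p = 0.135), and Txndc11, a thioredoxin-like protein, at 0.25 (SE 0.08, adjusted p = 0.148). Xbp1 differed by 0.11 (SE 0.07, limma adjusted p = 0.434), and by 0.18 with the spike-in cluster as a block. Ern1, the sensor that splices it, differed by -0.10 (SE 0.07, adjusted p = 0.477). Of 17 targets of Atf4, 0 were higher and 1 lower at an unadjusted p under 0.05, beside 8.86% and 6.87% of probe sets. That gene was Atf5, at -0.20 (SE 0.10), beside 0.13 (SE 0.07) for Cebpb and 0.12 (SE 0.07) for the serine enzyme Psat1. Cytosolic heat shock genes, a separate folding response, had a median difference of -0.12, with 1 of 9 positive and 0 at an unadjusted p under 0.05. This rested on cluster A, where their median was -0.75 and 0 of 9 were positive, while in clusters B and C the medians were 0.16 and 0.18 and 8 of 9 were positive in each. The group difference varied between clusters at an unadjusted p under 0.05 in 6 of the 9, beside 16.7% of probe sets, and in 0 after adjustment.

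Plasma cells are rich in this machinery, and 12 of their marker genes were measured. Of these, 9 were positive, beside 50.9% of probe sets. Their median difference was 0.11, from -0.06 to 0.18, beside a median of -0.002 over all 12427 genes. Pou2af1, a coactivator of antibody genes, was the 1 marker with an unadjusted p under 0.05, at 0.16 (SE 0.08). Of all probe sets, 8.86% were higher at that level. The transcripts of antibody chains lay below the marker median: Jchain at -0.04 (SE 0.07), Igha at -0.06 (SE 0.13) and Ighm at 0.003 (SE 0.09). The plasma cell score, the mean of the log2 levels of the markers after each was centred on its own mean, ran from -0.25 to 0.30 in arthritic and from -0.31 to 0.23 in non-arthritic mice. With that score as a covariate, 6 of the 36 genes were higher at an unadjusted p under 0.05, beside 9.74% of probe sets, and 21 were positive, beside 50.8%. Creld2, Derl3 and Pdia6 no longer had an unadjusted p under 0.05. The score includes Xbp1, a regulator of many of the 36 genes. Pancreas acinar genes, from another tissue rich in this machinery, had 0 of 6 at an unadjusted p under 0.05, with scores from -0.98 to 4.88 in arthritic and -0.96 to 5.47 in non-arthritic mice. With the spike-in cluster as a block their median was -0.64, with 0 positive and 2 lower at an unadjusted p under 0.05, and within cluster A it was -2.04. Cluster A holds all 3 arrays high in pancreas genes. These are arthritic replicate 8 among 9 arthritic arrays, and non-arthritic replicates 5 and 6 among only 4 non-arthritic arrays. Without these 3 arrays, 7 of the 36 genes were higher at an unadjusted p under 0.05, beside 10.7% of probe sets. In that fit 1, Atf4, was lower.

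The genes also varied together from mouse to mouse. Hspa5 was taken as the reference, and its correlation with the 35 others was computed over 36 mice in a family of 39 relations. It correlated with 15 of the 35, all positively, at a permutation p adjusted over the family under 0.05. The weakest of them had r = 0.38, a value that 13.5% of all other genes reached. The strongest was Manf, with Pearson r = 0.76 and Spearman rho = 0.78 (permutation p = 1e-05 for each, the smallest that the permutations can give; adjusted p of r = 0.000195). Sec61a1 followed at r = 0.66 and Fkbp2 at 0.65. Without the 2 mice farthest from the median of Hspa5, arthritic replicates 5 and 6, 8 relations were under 0.05, and that with Manf had r = 0.72. Within the 18 arthritic mice 15 relations were under 0.05, 14 of them positive, with a median r of 0.48 over the 35, and within the 18 non-arthritic mice 5 were, all positive, with a median of 0.28. The difference between the groups was not tested.

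Since the spike-in clusters differ in Hspa5, the relations were also computed on residuals after the means of group and cluster. Then 12 of the 35 had an adjusted permutation p under 0.05, all positive, at r of at least 0.40, which 6.02% of other genes reached. Pdia6 stood first at r = 0.80 and rho = 0.80 (adjusted permutation p = 0.000195), then Manf at r = 0.76, Dnajb11 at 0.64, Herpud1 at 0.61 and Calr at 0.61. Canx, at r = 0.60 on the values, had r = 0.32 on the residuals (adjusted permutation p = 0.128). Manf had a positive relation in each cluster, at r = 0.73, 0.78 and 0.76 in A, B and C, as did Herpud1 at 0.72, 0.59 and 0.64, and of these 6 values Manf in cluster B had an adjusted permutation p under 0.05 (0.00218). Pdia6 had r = 0.71, 0.91 and 0.34. The Gapdh ratio correlated with Hspa5 at r = 0.67 on the values and 0.49 on the residuals. With that ratio also taken out, 12 relations had an adjusted permutation p under 0.05, of which 11 were positive and 1 negative. Manf had r = 0.79, and the negative relation was that with Atf4, at r = -0.56 (adjusted permutation p = 0.00205). On the values of all 36 mice, Hspa5 and Atf4 had r = 0.06 (adjusted permutation p = 0.790).

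The co-variation with Hspa5 differed by probe set. Measured by its other 2 probe sets, Hspa5 correlated with Manf at 0.50 and 0.04, and with Pdia6 at 0.11 and -0.42. The number of partners under 0.05 was 9 for each, of which 9 and 4 were positive.

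Among all 630 pairs of the 36 genes, 70.2% had a positive residual correlation and 11.9% had r of at least 0.5, with a median of 0.18. Over all pairs of the 12427 genes the same shares were 51.2% and 2.49%, with a median of 0.008. These correlations share the arrays and are given as a description. The highest pairs were Sdf2l1 with Pdia4 at 0.87, Sdf2l1 with Pdia3 at 0.82, Hspa5 with Pdia6 at 0.80, Dnajb9 with Dnajc3 at 0.79, and Pdia4 with Pdia3 at 0.79. Sdf2l1, Pdia3 and Pdia4, which are among the 9 genes higher at an unadjusted p under 0.05, were thus correlated with each other. Non-arthritic replicates 1 and 13 were the lowest mice for Sdf2l1 (8.98 and 9.03) and Pdia3 (11.98 and 12.03). They were also low in Pdia4 (8.90 and 9.27), and replicate 1 had the highest median intensity, 183.2. The pairs were not recomputed without these arrays. Hspa5 paired with Pdia6 and Manf, and the co-chaperones Dnajb9 and Dnajc3 with each other. Sdf2l1 and Hspa5 had a residual Pearson r of 0.26 (adjusted permutation p = 0.199) and a Spearman rho of 0.45 (adjusted permutation p = 0.0265), and r differed between clusters, at -0.26, 0.76 and 0.32 in A, B and C. At the other end lay pairs with Atf4: Dnajc3 at -0.65, Derl2 at -0.60, Dnajb9 at -0.56 and Herpud1 at -0.56, together with Hsp90b1 and Ppib at -0.52. All pairs rest on the chosen probe sets alone. The other tested probe set of Atf4 had r = 0.09 with the chosen one. Those of Dnajc3 had -0.16 to 0.28, that of Derl2 had 0.17 and that of Herpud1 had 0.75.

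Each gene was also set against the mean of the other 35. The closest on the residuals were Manf at r = 0.83, Sel1l at 0.81, Dnajb11 at 0.78 and Creld2 at 0.74. Other tested probe sets of Sel1l had correlations of only -0.02 to 0.42 with the chosen one, on the values. Fkbp11, although among those higher in arthritic mice, followed the others weakly at 0.14. Derl1 had -0.002, Ero1l -0.11, Ssr3 -0.15, Atf6 -0.17 and Atf4 -0.31. By role, chaperones correlated with each other at a median of 0.34 and disulphide enzymes at 0.29, and genes of translocation with each other at 0.06. Genes with an ER stress element or element II in the window, 11 in number, had a median r with the others of 0.57, and the 19 without had 0.40. The group difference had a median of 0.02 in the former, with 5 at an unadjusted p under 0.05, and 0.06 in the latter, with 4.

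**Figure D5:**
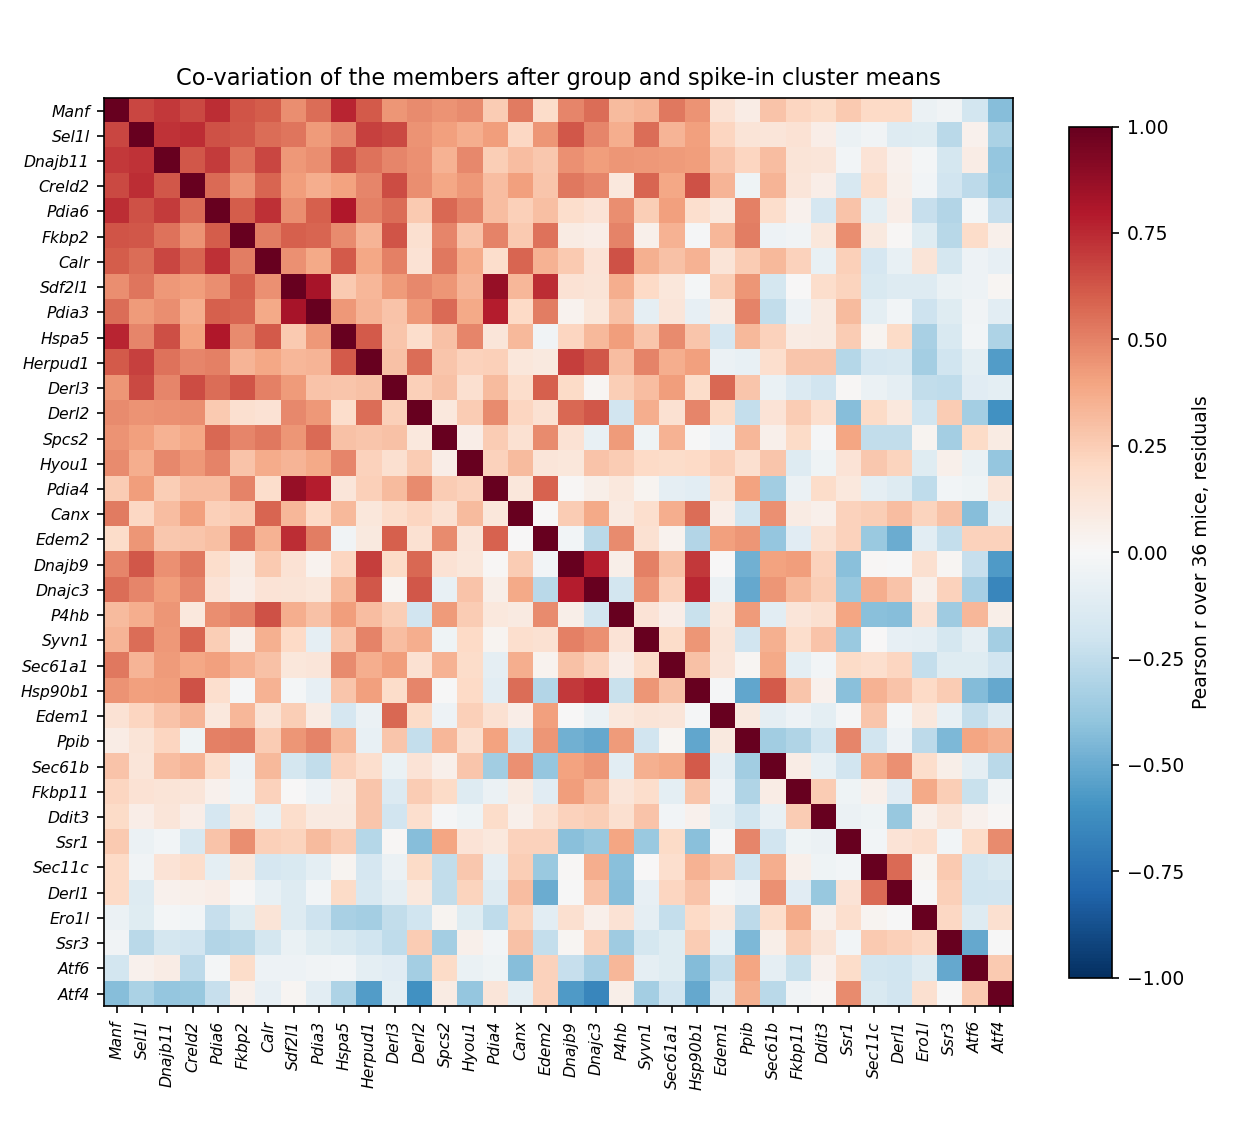
Pearson correlation between each pair of the 36 genes over 36 mice, on residuals after the means of group and spike-in cluster, with genes ordered by their correlation with the mean of the others (Manf first at 0.83, Atf4 last at -0.31). Red blocks at the upper left hold Manf, Sel1l, Dnajb11, Creld2 and Pdia6, the dark cells further in are Sdf2l1 with Pdia3 and Pdia4, and the blue cells at the edge belong to Atf4.

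Of the 12391 tested genes outside the group, Xbp1 followed the mean of the 36 most closely on the residuals, at r = 0.70 over 36 mice, where the median of those genes was -0.003. The next were Hikeshi, which carries the heat shock protein Hsp70 into the nucleus, at 0.68, Mtmr4, a lipid phosphatase of endosomes, at 0.67, Acot7, an acyl-CoA thioesterase, at 0.67, and Cdk2ap2 at 0.66. They were followed by the potassium channel Kcnj10 at 0.64, the isoprenoid enzyme Fdps at 0.62, Glipr1 at 0.62, the adaptor Grb2 at 0.61 and the collagen chaperone Serpinh1 at 0.61. The plasma cell score had r = 0.46 with the same mean, the pancreas score 0.07 and the Gapdh ratio 0.32.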

How the data were processed

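Spleen RNA was extracted with Trizol and labelled with biotin, per the labels. The authors' values are probe set intensity before any log. The submitters' processing notes name MAS5, without a version. They were analysed as log2(intensity + 16), without further normalization. The 64 control probe sets were left out, as were probe sets with a mean log2 under 6.49 (the 40th percentile), which left 27022. Gene names came from GEO's platform annotation (34945 probe sets with a single gene), and symbols were updated through RefSeq gene identifiers. The total of animals in the design text does not match its groups, so the titles were followed (18 mice per group). Nothing in the labels says how mice were paired or processed.

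Groups were compared with limma 3.58.1 in R 4.3.3 (lmFit, eBayes with trend, two-sided, Benjamini-Hochberg across the tested probe sets, threshold 0.05). On simulated arrays with 18 mice per group, 64 of 100 true changes of 0.5 log2 and 97 of 100 of size 1 were called among 27022 probe sets. The simulated noise was normal and independent between probe sets, without spike-in clusters or arrays high in pancreas genes. These counts therefore check the fit and do not give its power on the real arrays. Spike-in clusters are 3 Ward clusters of 18 hybridisation control probe sets, centred per probe set and per array. Correlations had two-sided permutation tests (100000 permutations), adjusted over 39 relations; residuals were permuted as if independent. Scripts ran under Python 3.11.15 with scipy 1.17.1, pandas 2.3.3, matplotlib 3.10.9 and numpy 2.4.6. The genes and lists were chosen with earlier results of these data known.

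Per-mouse ranges were given for the 8 genes with the smallest p and for Hspa5, Atf4, Atf6 and Ddit3. From the wider pathway and the Atf4 targets, the 3 genes with the smallest p were named, with Xbp1 and Ern1. The 10 genes most like the mean were also named, as were the 5 highest and 5 lowest pairs. Genes named for spike-in clusters, single probe sets or markers were chosen after their values were seen. Alternatives were other pseudocounts, filters, normalization, tests, blocks and covariates, and arrays left out in turn.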

Additional observations from a re-analysis of the deposited data

How the results depend on the processing

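Depth in the sense of reads does not apply to arrays, and 18 mice per group limit what can be seen. The count of 0 genes passing adjustment held under 15 of 16 other settings. With a replicate block 2 passed (Sdf2l1 at a limma adjusted p of 0.0190 and Pdia3 at 0.0447). Over all probe sets 369 of 27022 (1.37%) passed, against 13 in the fit without the block. The labels do not say that replicate numbers pair the mice. After group means were taken out, the 18 pairs of the same number had correlations from -0.23 to 0.47. Their median was 0.15, and 11 of 18 were over 0.1. Of the arthritic mice, 2 of 18 matched their own number best. These correlations were not tested. Replicate numbers followed the spike-in clusters in part, and cluster means were not taken out. A pairing of mice and the clusters were thus not separated, here or in the replicate block. With each array left out in turn 0 to 1 genes passed, the 1 being Sdf2l1, and the number at an unadjusted p under 0.05 ran from 6 to 13, beside 13.4% to 19.5% of probe sets. The Wilcoxon rank-sum test gave 8 of these, beside 15.4%. The Hspa5 difference turned positive with the spike-in block (0.019) and the Gapdh covariate (0.054). That of Atf6 did with probe sets averaged (0.0066), and that of Ddit3 with the pancreas covariate (0.00069), the plasma cell covariate (0.019) and probe sets averaged (0.038), and it ran from -0.026 to 0.019 with arrays left out in turn. Spike-in clusters differed in 2 genes with 2 clusters, beside 4.64% of probe sets, and in 5 with the array level kept, beside 10.9%, choices made after seeing the data, instead of 15. Relations with Hspa5 under 0.05 numbered 15 over all mice and 15 within arthritic mice, 8 without the 2 farthest mice, 5 within non-arthritic mice, 0, 10 and 0 within clusters A, B and C, and 9 by each of its other probe sets, of which 9 and 4 were positive. The cause was not tested.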
